A study of Mus musculus with 8 samples.

Results

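Fibulins, fibrillins, elastin and the microfibril-associated proteins Mfap4 and Mfap5 build elastic fibres, and their transcripts were compared between Tgfbr2 mutant and control palatal mesenchyme. Of the 10 genes of this group, taken by symbol, 8 were measured among 18193 genes: Efemp1, Fbln1, Fbln2, Fbln5, Eln, Fbn2, Mfap4 and Mfap5. Efemp2 and Fbn1 have no probe set in the gene table used and were not analysed here. Each gene was read on its brightest probe set. Primary palatal mesenchyme was taken from C57BL/6J mouse embryos (embryonic day 13.5), grown for 2 passages and profiled on 8 Affymetrix arrays. The 4 mutant arrays came from Tgfbr2 fl/fl; Wnt1-Cre embryos, in which Cre driven by Wnt1 deletes floxed Tgfbr2 in neural crest cells and their progeny. The 4 control arrays came from Tgfbr2 fl/fl embryos, so both genotypes carried the floxed alleles. Cells of other origin in these cultures keep the receptor, and the labels do not say whether each sample was a separate embryo, so p-values measure the spread between samples.

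An elastic fibre forms on a scaffold of fibrillin microfibrils. Short fibulins, among them the products of Efemp1, Efemp2 and Fbln5, bind tropoelastin, fibrillins or lysyl oxidases, and the lysyl oxidases then crosslink the elastin. Fibrillins also bind latent TGF-beta binding proteins, which keeps inactive TGF-beta in the matrix, and TGF-beta in turn is a known inducer of elastin and several of its partners in fibroblasts.

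Efemp1 (fibulin-3) was the only measured gene of the group to pass the test, and it rose in mutant cells by 1.81-fold. Fbln5, a fibulin of similar domain structure, had a difference of nearly the same size in the other direction, 1.81-fold lower in mutant cells, and did not pass over all genes. The long fibulins Fbln1 and Fbln2 and the microfibril protein Mfap4 had lower mutant means. Eln and the fibrillin Fbn2 each had a mutant mean 0.02 above the control mean on the log2 scale, within the spread of the arrays. In limma with Benjamini-Hochberg adjustment over all genes, 1 of the 8 was higher and 0 were lower, where 0.0220% of all genes were called higher and 0.0660% lower. At an unadjusted p under 0.05 the group held 1 higher and 2 lower genes, against 5.84% and 9.69% of all genes. The median difference was -0.31 over the 8 genes and -0.01 over all genes. No gene of the 8 lay near that median, which falls midway between Eln (0.02) and Fbln1 (-0.65). Of the 8, 4 differences were positive and 4 negative, where 51.7% of all genes were negative.

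The sequences upstream of Efemp1 and Fbln5 are shown because these related genes differed in opposite directions. Each is the 250 bases before a transcription start in RefSeq (GRCm38.p6), read 5′ to 3′ on the gene's strand, and Fbln5 has 2 annotated starts. Capitals mark matches on either strand to a Smad box (CAGAC), AP-1 (TGANTCA), TEAD (GGAATG) or a TATA box (TATAAA), motifs that do not overlap here.
Efemp1, chr11:28852955-28853204, plus strand: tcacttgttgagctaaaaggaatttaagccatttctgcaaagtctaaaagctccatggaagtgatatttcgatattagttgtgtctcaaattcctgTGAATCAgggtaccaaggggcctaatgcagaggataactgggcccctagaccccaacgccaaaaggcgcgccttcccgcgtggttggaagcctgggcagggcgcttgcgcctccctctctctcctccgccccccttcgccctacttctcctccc
Fbln5 upstream start, chr12:101819120-101819369, minus strand: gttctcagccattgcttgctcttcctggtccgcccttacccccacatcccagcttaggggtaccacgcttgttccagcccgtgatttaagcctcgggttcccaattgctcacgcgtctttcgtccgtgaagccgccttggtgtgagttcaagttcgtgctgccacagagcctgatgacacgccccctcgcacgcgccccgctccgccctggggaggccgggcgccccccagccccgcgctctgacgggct
Fbln5 downstream start, chr12:101818485-101818734, minus strand: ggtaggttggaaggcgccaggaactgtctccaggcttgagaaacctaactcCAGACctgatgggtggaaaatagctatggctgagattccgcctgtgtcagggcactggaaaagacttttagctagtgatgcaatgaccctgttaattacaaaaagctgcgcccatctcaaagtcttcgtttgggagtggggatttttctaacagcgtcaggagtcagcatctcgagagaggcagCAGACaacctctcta

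The Efemp1 window held 1 AP-1 match and no match to the other motifs. The downstream Fbln5 window held 2 Smad boxes and the upstream window none of the 4 motifs. Fbln1 had 2 Smad boxes, the same 2 sites in each of its 2 overlapping windows, and the Fbln2 window had none of the 4 motifs. Among 32851 windows of the same length, 42.2% held a Smad box, 6.75% the AP-1 motif, 12.6% the TEAD motif and 12.4% the TATA box. These matches describe letters in the window and no binding was measured. Windows for 4 of the 8 measured genes were used.

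Before the group is described array by array, some features of the arrays bear on it. The targeted gene Tgfbr2 read 12.42 ± 0.47 in mutant and 12.04 ± 0.40 in control arrays (SD, n = 4 each) on its brightest probe set. Where its probes lie with respect to the floxed exon was not analysed here, so that reading does not check the genotype labels. The median probe set read 6.93. Of 13 palatal mesenchyme markers, 12 exceeded that level on every array and Osr2, a palatal transcription factor, was under it on every array. The mean of the list was 11.56 to 12.19 in mutants and 11.61 to 12.04 in controls. Macrophage and leukocyte markers were also bright, with 19 of 20 over that level on every array and none under it on every array. Their mean was 13.07 to 13.11 in mutants 1 to 3 but 10.96 in mutant 4. Controls 1 and 2 had means of 12.24 and 12.47, while controls 3 and 4 had 11.02 and 10.86 (exact permutation p = 0.2 between genotypes, or 0.35 when 7 lists were adjusted for). Epithelial markers averaged 6.93 in mutants against 6.75 in controls and chondrocyte markers 6.43 against 6.79 (exact permutation p = 0.0286 each, adjusted 0.1). The epithelial mean rested mainly on Cdh1, which differed by 1.47, while Krt5, Krt8 and Krt18 were lower in mutants. The median difference was 0.05 over the epithelial list and -0.31 over the chondrocyte list. Only 3 of 8 epithelial and 2 of 6 chondrocyte markers exceeded the median probe set on every array, and their part in the results was not tested. The bioB hybridisation controls were lower on replicates 1 and 2 of both genotypes (6.34 to 6.52, bioB group 1) than on replicates 3 and 4 (8.24 to 8.79, bioB group 2), a division the labels do not mention. The poly-A spike-in controls were lower on mutants 3 and 4 and control 3 (6.77 to 7.56) than on the other 5 arrays (8.53 to 9.21), which gives the poly-A groups.

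**Figure D1:**
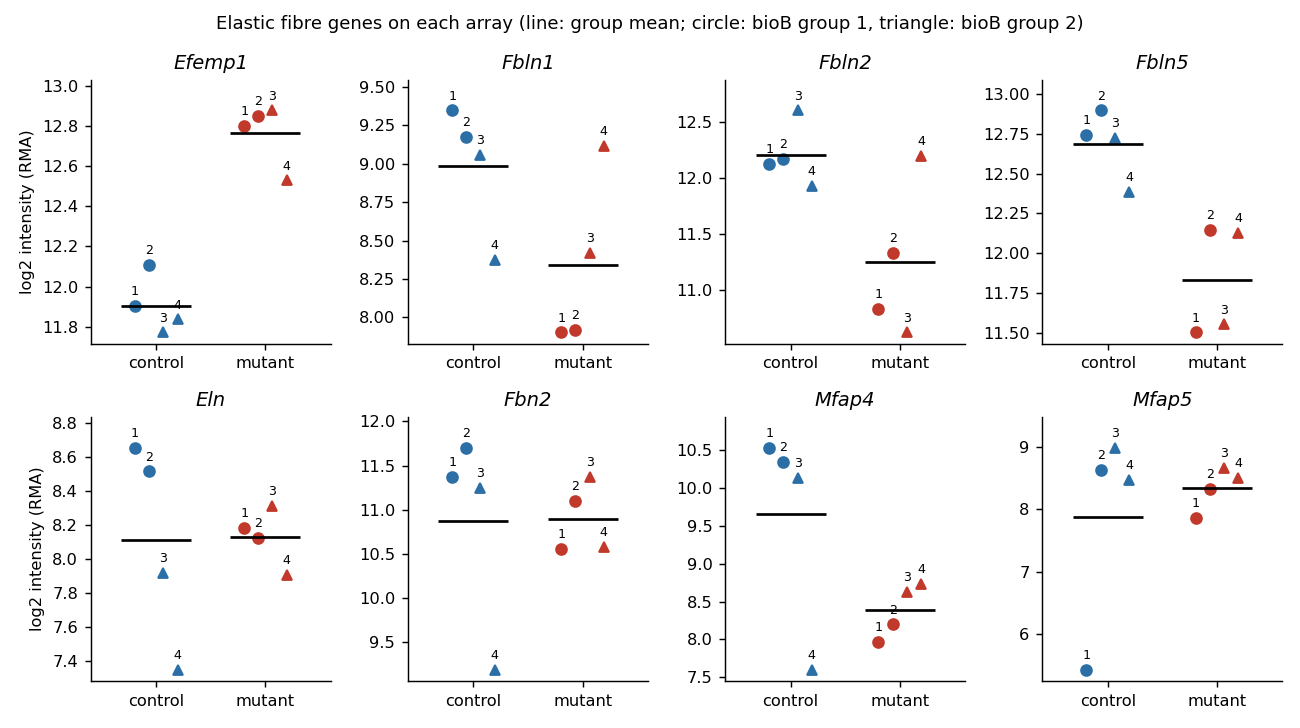
Log2 intensity of the 8 measured genes on each array, by genotype, with the replicate number above each point and the group mean as a line; circles are bioB group 1 and triangles bioB group 2. Efemp1 and Fbln5 have no overlap between genotypes, and control 4 is the lowest control for 6 of the 8 genes.

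Efemp1 encodes fibulin-3, a secreted glycoprotein of basement membranes and connective tissue. Its log2 intensities were 12.80, 12.85, 12.88 and 12.53 in mutants 1 to 4 and 11.90, 12.11, 11.77 and 11.84 in controls 1 to 4. All 4 mutants lay above all 4 controls, and mutant 4 was the lowest of the mutants. The means were 12.76 ± 0.16 in mutants and 11.90 ± 0.15 in controls (SD, n = 4). The difference was 0.86 (SE 0.11, 95% interval 0.61 to 1.11), with adjusted p = 0.0486 in limma over all genes, just under the threshold of 0.05. It was 0.82 in bioB group 1 and 0.90 in bioB group 2, and 0.72 with the macrophage marker mean as a covariate (adjusted p = 0.0313 in limma).

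The direction of Efemp1 was the same in all 21 alternative fits, and the call held in 9 of them. Efemp1 has 1 probe set, so the fits that change the probe set could not move its difference. Nor could those that change the variance model or the dim genes, or that add the replicate or bioB block. Adjusted p in limma was 0.0656 with each array centred on its median, 0.0671 with the most variable probe set of each gene, 0.0729 with the poly-A group as a block and 0.819 in bioB group 2 alone. With 1 array left out the difference ran from 0.81 to 0.94, and it passed in 1 of the 8 fits, without mutant 4 (adjusted p = 0.00955 in limma), where 1316 of all genes passed. In the other 7, without mutant 1, 2 or 3 or any 1 of the controls, adjusted p ran from 0.0688 to 0.216. Adjusted over 45037 probe sets in place of genes, its p was 0.0743 in limma.

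The other short fibulin measured was Fbln5 (fibulin-5), which binds tropoelastin, lysyl oxidase-like 1 and cell surface integrins and is needed to organise elastic fibres. Mutants 1 to 4 read 11.50, 12.15, 11.55 and 12.13 in log2 intensity, and controls 1 to 4 read 12.74, 12.90, 12.72 and 12.38. Every mutant lay below every control, with mutants 2 and 4 and control 4 nearest to the other genotype. Means were 11.83 ± 0.35 in mutants and 12.69 ± 0.22 in controls (SD, n = 4), a difference of -0.85 (SE 0.19, 95% interval -1.28 to -0.43). The unadjusted p was 0.00155 and the adjusted p 0.178 in limma. The difference was -0.996 and -0.71 in the bioB groups and -0.82 with the macrophage covariate, and without mutant 4 it was -0.95 and passed (adjusted p = 0.0303 in limma). The second, dim probe set of Fbln5, below the median probe set, gave -0.36 (SE 0.17).

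Whether these fibulins changed unequally was tested within arrays, where scaling common to an array cancels. Efemp1 minus Fbln5 was 1.30, 0.70, 1.33 and 0.40 on the log2 scale in mutants 1 to 4 and -0.84, -0.79, -0.95 and -0.55 in controls 1 to 4. Every mutant value lay above every control value. The level of this difference depends on the probes, so only its shift between genotypes was compared. Its mean differed by 1.71 between genotypes (exact two-sided permutation p = 0.0286, the smallest that 4 against 4 arrays can give, and 0.0857 adjusted over 3 pairs). Every mutant was above every control for Efemp1 and below every control for Fbln5. That smallest p therefore followed from the readings of each gene and adds no separate evidence. Without mutant 4 the shift was 1.89, in the bioB groups 1.81 and 1.61, and with the macrophage covariate 1.54. Of 6 planned pairs, 3 needed Efemp2 or Fbn1 and were not tested.

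Fbln2 (fibulin-2) is a long fibulin that binds fibrillins and fibronectin and is made by embryonic mesenchyme. Its readings were 10.83, 11.33, 10.62 and 12.20 in mutants 1 to 4 and 12.12, 12.16, 12.60 and 11.93 in controls 1 to 4, in log2 intensity. Mutants 1 to 3 lay below every control and mutant 4 lay within the control range. The difference was -0.96 (SE 0.33, 95% interval -1.71 to -0.21), with unadjusted p = 0.0179 and adjusted p = 0.243 in limma. Without mutant 4 it was -1.28 and passed (adjusted p = 0.0212 in limma), and with the macrophage covariate it was -0.60. The other probe set read 3.78 ± 0.13 and 3.82 ± 0.10 (SD, n = 4 each), near the bottom of the scale on every array.

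Fbln1 (fibulin-1), another long fibulin and a known component of elastic fibres, read 7.90, 7.92, 8.42 and 9.11 in mutants 1 to 4 and 9.35, 9.17, 9.06 and 8.37 in controls 1 to 4. Mutants 1 and 2 were below all controls, while mutant 4 and control 4 each lay among the other genotype. The difference was -0.65 (SE 0.31, 95% interval -1.35 to 0.05; adjusted p = 0.351 in limma). It was -1.35 in bioB group 1 and 0.05 in bioB group 2. The change of the difference between the groups was 1.40 (SE 0.41, unadjusted p = 0.0125 and adjusted p = 1.00 over all genes in limma). Its second probe set gave -0.60 (SE 0.33) and the remaining probe set 0.09 (SE 0.10), so the probe sets of Fbln1 did not all point one way. Within arrays Fbln1 minus Fbln2 differed by 0.31 between genotypes (exact permutation p = 0.429). That shift ran from 0.0755 without mutant 3 to 0.48 without mutant 2, with 0.199 without control 4 and 0.203 without control 3. It was -0.28 in bioB group 1 and 0.91 in bioB group 2.

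**Figure D2:**
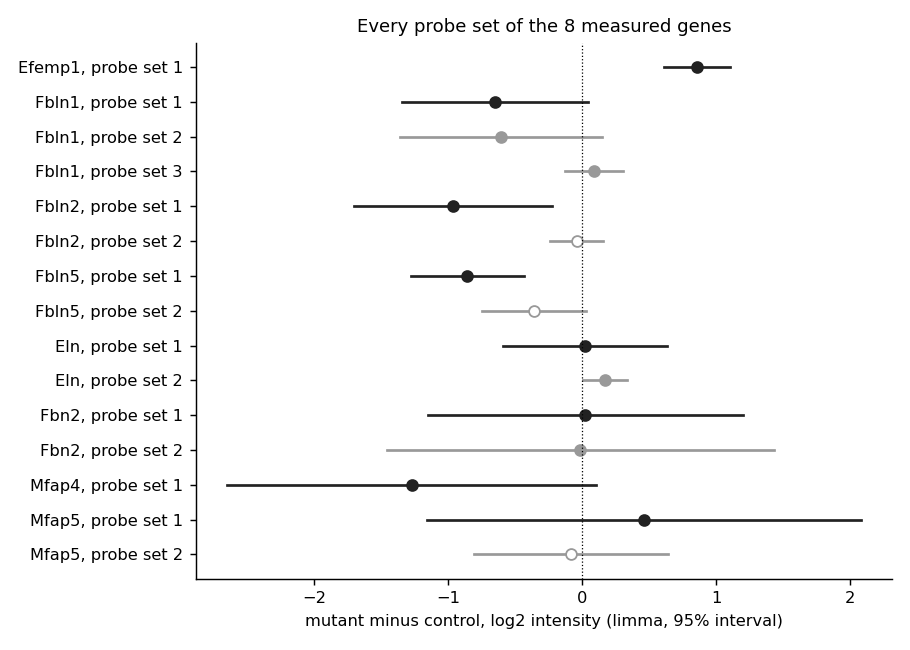
Mutant minus control difference in log2 intensity, with limma's 95% interval, for all 15 probe sets of the 8 measured genes; black is the brightest probe set of a gene, grey the others, and open circles lie below the median probe set. The intervals of the brightest probe sets of Efemp1, Fbln2 and Fbln5 do not include 0, and those of Fbn2, Mfap4 and Mfap5 are wide.

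Eln encodes tropoelastin, the elastic core of the fibre. It read 8.18, 8.12, 8.31 and 7.91 in mutants 1 to 4 and 8.65, 8.52, 7.92 and 7.35 in controls 1 to 4. The controls spread wider than the mutants and enclosed them: controls 1 and 2 were the highest and control 4 the lowest array. The difference was 0.02 (SE 0.27, adjusted p = 0.980 in limma) with a 95% interval of -0.60 to 0.64. It was -0.43 in bioB group 1 and 0.47 in bioB group 2, where the change between the groups was 0.91 (SE 0.31, unadjusted p = 0.0232, adjusted p = 1.00 in limma). The other, dimmer Eln probe set gave 0.17 (SE 0.07, unadjusted p = 0.0442 and adjusted p = 0.340 over all probe sets in limma).

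Fbn2 encodes fibrillin-2, the fibrillin of embryonic microfibrils, and was the only fibrillin measured. Log2 intensities were 10.56, 11.10, 11.37 and 10.57 in mutants 1 to 4 and 11.37, 11.70, 11.24 and 9.18 in controls 1 to 4. Control 4 was the lowest of all 8 arrays, more than 1 log2 unit below the next. The difference was 0.02 (SE 0.52, 95% interval -1.16 to 1.21; adjusted p = 0.987 in limma) and turned to -0.54 without control 4, -0.13 without mutant 3 and -0.04 without mutant 2. The second probe set gave -0.01 (SE 0.63), again with control 4 lowest at 8.35.

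Mfap4 encodes a microfibril-associated glycoprotein that binds elastin and fibrillins. In log2 intensity mutants 1 to 4 read 7.97, 8.20, 8.63 and 8.73, and controls 1 to 4 read 10.53, 10.35, 10.13 and 7.60. Controls 1 to 3 lay well above every mutant, and control 4 lay below every mutant. The difference was -1.27 (SE 0.61, 95% interval -2.66 to 0.12), the largest of the 8 in size, with adjusted p = 0.356 in limma. Without control 4 it was -1.95 and passed (adjusted p = 0.0351 in limma). It was -2.36 in bioB group 1 and -0.18 in bioB group 2, which holds control 4.

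Mfap5 (MAGP-2), a small microfibril protein that binds fibrillins, read 7.86, 8.32, 8.66 and 8.50 in mutants 1 to 4 and 5.44, 8.62, 8.98 and 8.46 in controls 1 to 4. Control 1 stood alone at the low end, and the other controls overlapped the mutants. The difference was 0.46 (SE 0.71, 95% interval -1.18 to 2.09; adjusted p = 0.794 in limma) and turned to -0.35 without control 1. On the dimmer probe set control 1 was again the lowest array (5.91, with the others at 6.53 to 7.50), and the difference was -0.08 (SE 0.32). Mfap4 minus Mfap5 within arrays differed by -1.73 between genotypes (exact permutation p = 0.171, and 0.257 adjusted over 3 pairs). The shift was -2.61 without control 4 (exact permutation p = 0.0286, the smallest possible) and -0.62 without control 1 (exact permutation p = 0.343). It was -3.42 in bioB group 1 and -0.0402 in bioB group 2.

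Single arrays carried much of the spread within the group. Control 4 was the lowest control for Fbln1, Fbln2, Fbln5, Eln, Fbn2 and Mfap4, and mutant 1 was the lowest mutant for 5 genes. Mutant 4 was the highest mutant for Fbln1, Fbln2 and Mfap4 and the lowest for Efemp1 and Eln. Mutant 4 and controls 3 and 4 had the lowest macrophage marker means, and the part of those cells in the fibulin differences beyond the covariate fits was not tested. In these bulk cultures fewer cells of a type and less RNA per cell cannot be told apart. The genotypes did not overlap for 2 of the 8 genes, Efemp1 and Fbln5, against 8.07% of all genes.

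**Figure D3:**
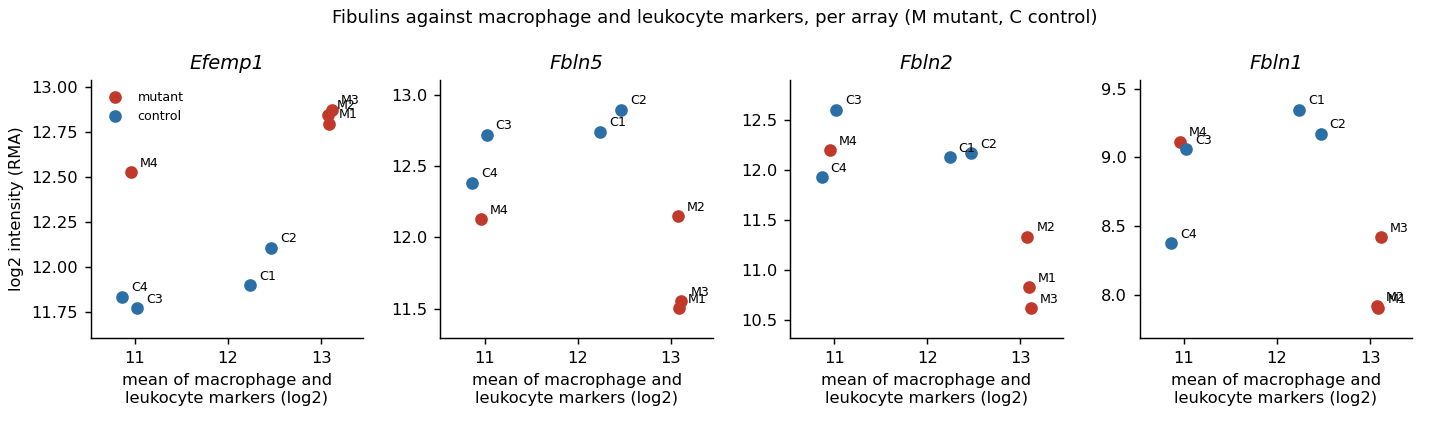
Log2 intensity of the fibulins (vertical) against the mean log2 intensity of 20 macrophage and leukocyte markers (horizontal) on each array, with mutant (M) and control (C) replicates labelled. Mutant 4, at a marker mean of 10.96, is the lowest mutant for Efemp1 but lies above the controls. It lies below the controls for Fbln5 and among them for Fbln2 and Fbln1.

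**Figure D4:**
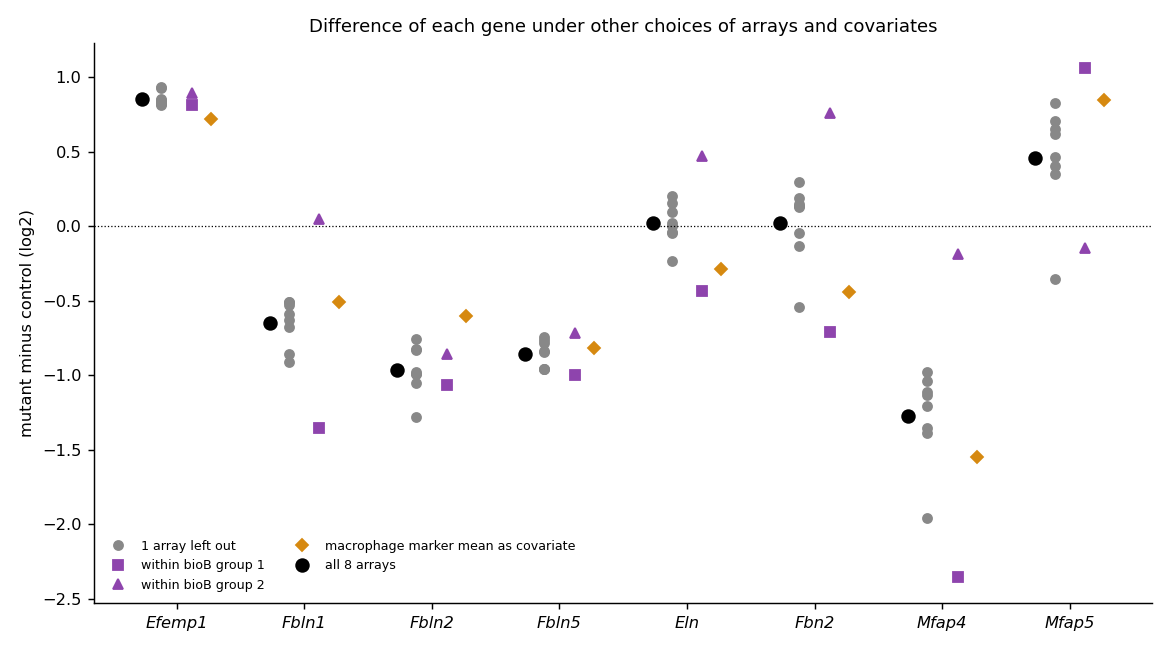
Mutant minus control difference of each measured gene with all 8 arrays, with each array left out in turn, within each bioB group and with the macrophage marker mean as a covariate, on the log2 scale. Efemp1, Fbln2, Fbln5 and Mfap4 keep their sign in all of these fits, and Fbln1, Eln, Fbn2 and Mfap5 do not.

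The genes whose centred pattern over the 8 arrays was most like that of Efemp1 were Rtn1, a reticulon of the endoplasmic reticulum, Cd52, a leukocyte surface glycoprotein, and the transcription factor gene Bach1. Likeness was the mean absolute difference between centred log2 values, 0.09, 0.11 and 0.12, over 11693 candidates. Like Efemp1, each had its lowest mutant value on mutant 4, at 8.20 for Rtn1, 13.94 for Cd52 and 11.02 for Bach1. The genes were chosen for likeness over these same 8 arrays, so this shared low value partly follows from the choice. Cd52 is also one of the 20 leukocyte markers. Those most like Fbln5 were the Wnt receptor gene Fzd5 (0.10), the acyltransferase gene Mboat2 (0.11) and P3h3, a collagen prolyl hydroxylase family gene (0.11), with differences of -0.94, -0.85 and -0.74. The nearness of these differences to that of Fbln5 also follows from the choice. None of the 3 passed over all genes (adjusted p from 0.099 to 0.190 in limma).

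Among other genes of elastic fibre assembly, 47 of 51 were measured. Of these 35 had negative and 12 positive differences, with a median of -0.27 against -0.01 over all genes, where 51.7% were negative. Only Adamts6 passed over all genes, and none was called higher. At an unadjusted p under 0.05 there were 11 lower and 1 higher, against 9.69% and 5.84% of all genes. The median was -0.08 with the macrophage covariate and -0.45 without mutant 4. In that fit 10 of the 47 passed, and so did 1316 of all 18193 genes, against 16 with every array. Adamts6 lost its call in the 6 fits without mutant 1, 2 or 3 or control 1, 2 or 3. Centring the arrays, averaging a gene's probe sets or taking its most variable one also removed the call. So did a replicate block, a poly-A block and the fit in bioB group 2 alone.

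Lysyl oxidases, which crosslink elastin and collagen, had negative differences for all 4 measured members. Lox read 13.52, 13.89, 13.59 and 14.26 in mutants 1 to 4 and between 14.25 and 14.37 in controls. Mutant 4 reached the control range and the other mutants lay below it, for a difference of -0.48 (SE 0.16, adjusted p = 0.232 in limma). Loxl1, the partner of fibulin-5, differed by -0.26 (SE 0.25). All 4 latent TGF-beta binding protein genes, Ltbp1 to Ltbp4, also had negative differences, from -0.64 for Ltbp1 to -0.26 for Ltbp3. In limma their unadjusted p ran from 0.085 to 0.19.

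The ADAMTS family holds secreted proteases and related proteins, several of which bind fibrillin microfibrils. Adamts6 fell by 1.21 on the log2 scale (SE 0.15, adjusted p = 0.0486 in limma), from 8.003 to 8.67 in controls to 6.95 to 7.20 in mutants. Adamtsl3, a related protein without a protease domain, read 7.36 to 7.99 in mutants and 8.20 to 9.51 in controls, a difference of -1.31 (SE 0.29, adjusted p = 0.180 in limma). The genotypes did not overlap for either gene. These were the only 2 of the 47 pathway genes without overlap, 4.26% against 8.07% of all genes. The other 6 measured members lay between -0.43 and 0.27.

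Remaining pathway genes with the smallest p were the proteoglycan gene Vcan, which differed by -0.94 (SE 0.32), the proprotein convertase gene Pcsk5 with -1.99 (SE 0.63) and the macrophage elastase gene Mmp12 with -2.15 (SE 0.55). Their adjusted p in limma ran from 0.187 to 0.242. Elastin-degrading enzymes were otherwise mixed, with 4 of 6 positive and a median of 0.52. Ctsk, the cathepsin of bone-resorbing cells and also of macrophages, differed by 0.996 (SE 0.39, adjusted p = 0.285 in limma). Ctsk was highest in mutants 1 to 3 (12.90 to 13.34), the arrays with the highest macrophage marker means. Mmp12 did not follow those means, at 7.42 to 8.89 in mutants 1 to 3, 7.29 in mutant 4 and 11.26 in control 4. Control 4 had the lowest mean, and a link of either gene to those cells was not tested. Integrin and other receptor genes had 7 of 8 negative differences, with none at an unadjusted p under 0.05.

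**Figure D5:**
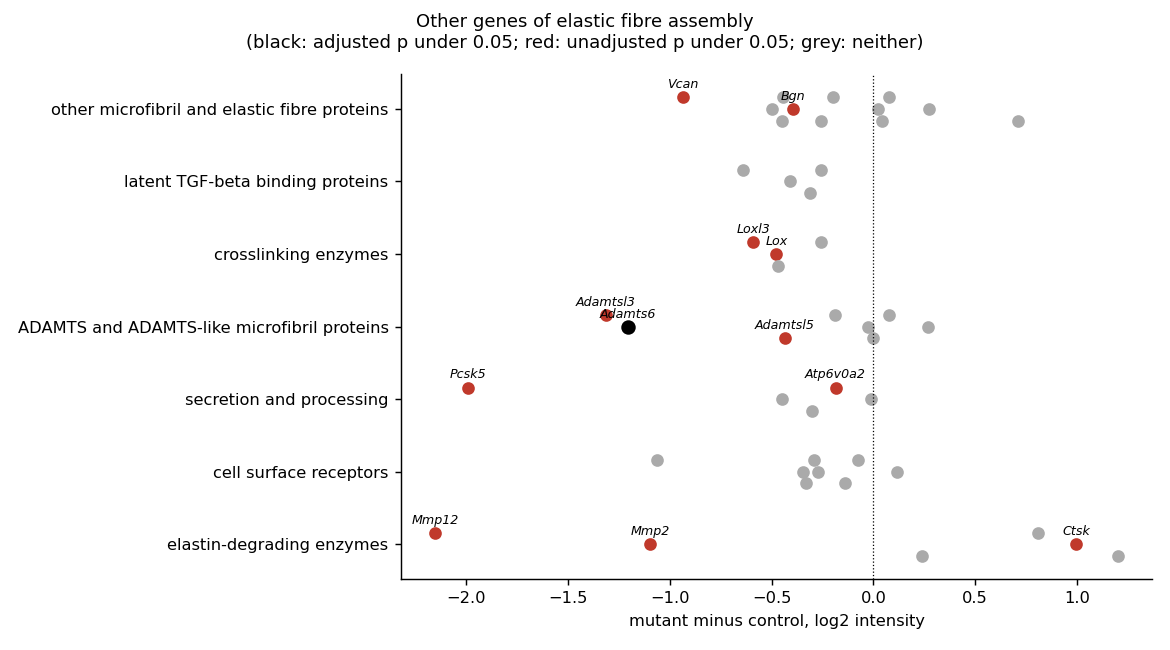
Mutant minus control difference in log2 intensity of 47 other genes of elastic fibre assembly, by class; black passed over all genes, red had an unadjusted p under 0.05 and grey had neither. Most points lie left of 0, and the elastin-degrading enzymes spread from -2.15 for Mmp12 to above 1 for Mmp9.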

How the data were processed

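The authors deposited log2 intensities for 45101 probe sets on 8 arrays, made with the RMA method per the submitters' processing notes, with no version given there. These values were used as deposited. Probe sets were named from the platform's gene table, which gave 34945 of them a single symbol, and 9160 probe sets without a listed gene and 932 with several were left out. The brightest probe set stood for each of 18193 genes. Genotypes were compared by lmFit and eBayes of limma 3.58.1 under R 4.3.3, two-sided and without covariates, with a Benjamini-Hochberg threshold of 0.05 across the whole gene table. The code was tested on simulated data. The number of arrays limits the precision of every value. Single within-array differences and marker means were compared with exact permutation tests over arrays. The members, gene lists and alternatives were chosen with earlier results of these data known.

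All measured members were named, with pathway genes that passed or were among the 6 with the smallest p, and the 3 genes closest in pattern to Efemp1 and to Fbln5; latent TGF-beta binding proteins, Loxl1 and Ctsk were added after their values were seen. Motifs were searched in RefSeq upstream windows of 250 bases. Alternatives covered normalisation, probe set choice, dim genes, variance model, array weights, blocks from array controls, a macrophage covariate, the threshold and each array left out. The arrays' bioB and poly-A spike-in controls were divided at their largest gap.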

Additional observations from a re-analysis of the deposited data

Results flagged for a closer look

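Dixon's gap test on 42 groups of 4 arrays marked 4 values as far from the rest of their group, and chance marks about 1 in 20 groups. Mfap4 in control 4 read 7.60, with the other controls at 10.13 to 10.53. Mfap5 in control 1 read 5.44, with the other controls at 8.46 to 8.98. The macrophage and leukocyte marker mean of mutant 4 was 10.96, with the other mutants at 13.07 to 13.11. The mean of 4 measured osteoblast markers was 6.12 in mutant 2 and 6.20 in each of the other mutants.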

How the results depend on the processing

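Efemp1, Fbln2, Fbln5 and Mfap4 kept their sign in all 21 fits. The dim gene, variance model, replicate block and bioB block fits could not change a difference. The count of the 8 genes past the threshold, 1 with all arrays, was 0 with each array centred on its median, the most variable probe set, the replicate block, the poly-A group as a block or bioB group 2 alone, 5 with array weights, 6 in bioB group 1 alone, and 0 to 3 with 1 array left out. All-gene counts, 16 in the report, were 3 with the most variable probe set, 1470 with array weights, 0 with the replicate block, 2 with the poly-A block, 2085 and 0 in the bioB groups, 51 with the macrophage covariate, 41 at a threshold of 0.10, and 0 to 1316 with 1 array left out. Pathway genes past the threshold, 1 in the report, numbered 0 with centred arrays, averaged or most variable probe sets, either of those blocks or bioB group 2, 10 with array weights, 16 in bioB group 1, and 0 to 10 with 1 array left out; their median was -0.0841 with the macrophage covariate and -0.45 to -0.18 with 1 array left out. Eln turned to -0.0113 with centred arrays, -0.26 with array weights, -0.43 in bioB group 1 and -0.29 with the covariate, and ran from -0.23 to 0.20 with 1 array left out. Fbn2 turned to -0.00712 with centred arrays, -0.0135 with the most variable probe set, -0.41 with array weights, -0.0482 with the poly-A block, -0.71 in bioB group 1 and -0.44 with the covariate, and ran from -0.54 to 0.30. Fbln1 was 0.0506 and Mfap5 -0.14 in bioB group 2; Mfap5 ran from -0.35 to 0.83 with 1 array left out. Fbln1 minus Fbln2 was -0.28 in bioB group 1. The causes were not tested. With the replicate block Efemp1 had an adjusted p of 0.102 in limma. Deviations of same-numbered arrays from their group means correlated at 0.47, 0.42, -0.09 and 0.37 across genes. Those of differently numbered arrays correlated at -0.64 to 0.61. The labels do not say whether the numbers mark pairs, and these correlations cannot decide it. Arrays carry no depth, and the dim probe sets of Fbln2, Fbln5 and Mfap5 limit what those values show.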
